A study of Caenorhabditis elegans with 4 samples.

Results

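The centre of Caenorhabditis elegans chromosome V was examined for sites bound by TBP-1, the TATA-binding protein of the worm. Its members were the peaks of the series list whose centre lay on chromosome V between 5230000 and 15690000 on the WormBase WS220 build. They numbered 393 of 4214 peaks, of which 4203 were on the nuclear chromosomes. This interval is the middle 50% of the chromosome, 10.46 Mb long, and is defined by position alone. The outer parts of V held 294 peaks, and the centres of chromosomes I to IV, cut in the same way, held 1302.

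The data came from chromatin immunoprecipitation and sequencing (ChIP-seq) of wild-type N2 embryos, the standard laboratory strain, at 20 °C. The embryos were of mixed stages and of both sexes (males and hermaphrodites). The 2 TBP-1 ChIP samples used an affinity-purified rabbit polyclonal antibody against TBP-1, and the 2 input samples were DNA of the same strain and stages. A peak list was analysed for each ChIP replicate and for the whole series; the inputs had none analysed here, so no background list stands beside these values. The embryos were whole and unsorted, so a peak does not say in which cells TBP-1 was bound. Nothing in the labels says that the replicates came from separate cultures, so differences between them may be technical.

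TBP-1 is a general transcription factor. It helps to place RNA polymerases at promoters and is used by all nuclear RNA polymerases, with or without a TATA box in the DNA. Worm autosomes have a gene-rich central part, in which many broadly expressed genes lie, and outer arms that are richer in repeats and in fast-evolving gene families. Chromosome V is the largest chromosome and is known for its many chemoreceptor genes, above all on its arms.

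The share of all TBP-1 peaks that lay in the V centre was slightly below its share of length, a difference not tested here. With 10.4% of the nuclear length, the V centre contained 9.35% of the series-list peaks, 9.98% of the replicate 1 peaks (168 of 1684) and 8.91% of the replicate 2 peaks (237 of 2660). Its series-list peaks covered 1.53% of its bases, against 1.15% of the outer parts of V and 1.58% of the centres of I to IV. Their total width was 159699 bp.

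Within chromosome V, peaks were denser in the centre than in the outer parts. The series list had 37.6 peaks per Mb in the centre and 28.1 per Mb in the outer parts. Replicate 1 had 16.1 per Mb in the centre and 12.3 per Mb in the outer parts, and replicate 2 had 22.7 and 16.5 per Mb in the same order. The density ratio of centre over outer parts was 1.34 in the series list (95% interval 1.06 to 1.69), 1.30 in replicate 1 (0.92 to 1.85) and 1.37 in replicate 2 (1.09 to 1.73). In the quasi-Poisson model of 500 kb windows, the ratio passed the threshold of 0.05 in the series list and in replicate 2 (adjusted p = 0.046 for both, over 6 tests, n = 21 and n = 22 windows) and not in replicate 1 (adjusted p = 0.20). The model treats windows as independent, although the fullest ones of the centre adjoin, so its p values may be too small. The mean ratio of the 2 replicate lists was 1.34 ± 0.048 (SD, n = 2). The call was lost in both lists with windows of 1 Mb (adjusted p = 0.084, n = 11 and n = 12 windows) and with a narrower centre made of the middle 33% of the chromosome, where the ratios were 1.16 in both lists (adjusted p = 0.35). It was also lost with the stronger 50% of each list (ratios 1.49 in the series list and 1.46 in replicate 2, adjusted p = 0.084 and 0.089, n = 21 and n = 22 windows) and with only the peaks found in both replicates (1.53 and 1.47, adjusted p = 0.072 each).

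The left and right outer parts of V were not equally sparse. The left outer part had 25.8 series-list peaks per Mb, and the ratio of the V centre to it was 1.46 in the series list, 1.62 in replicate 1 and 1.65 in replicate 2. The difference from the left part passed the quasi-Poisson test in replicate 2 (adjusted p = 0.020, over 18 tests, n = 21 and n = 11 windows) and missed it in the series list (0.076) and replicate 1 (0.090). The right outer part had 30.4 peaks per Mb, and the ratio of the V centre to it was 1.24, 1.09 and 1.17 in the series, replicate 1 and replicate 2 lists, with no call (adjusted p of 0.39 to 0.83). The left and right parts were not tested against each other. The densest window of the outer parts in the series list was the incomplete last one of 234 kb at the right end. It held 16 series-list peaks, 1 replicate 1 peak and 10 replicate 2 peaks, or 68.3, 4.27 and 42.7 per Mb. In the series and replicate 2 lists it was denser than any V-centre window, of which the densest had 64.0 and 39.1 per Mb.

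Between the V centre and the centres of I to IV, no difference in density passed the test. The series list had 37.6 peaks per Mb in the V centre and 42.3 per Mb in the other centres, a ratio of 0.89 (0.74 to 1.06). The ratio was 1.01 in replicate 1 (0.77 to 1.32) and 0.84 in replicate 2 (0.71 to 1.00). None passed the quasi-Poisson test (adjusted p = 0.24, 0.97 and 0.10, n = 21 and n = 64 windows). Merging peaks closer than 1 kb lowered the ratios to 0.84 in the series list and 0.82 in replicate 2, and both then passed (adjusted p = 0.047 and 0.046, n = 21 and n = 64 windows).

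Among single chromosomes, the centre of III was the densest, with 49.2 series-list peaks per Mb, followed by I with 45.3, IV with 39.1, V with 37.6 and II with 36.6. The V centre had 0.76 times the density of the III centre in the series list, 0.82 times in replicate 1 and 0.73 times in replicate 2, and no list passed after adjustment (quasi-Poisson model, adjusted p = 0.090, 0.50 and 0.055, n = 21 and n = 14 windows). The V centre thus stood next to last in the series list. Its differences from its neighbours in that order, IV and II, did not pass (quasi-Poisson model, adjusted p = 0.83 and 0.88, n = 21 windows on V, n = 18 on IV and n = 16 on II).

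V had the largest contrast between centre and outer parts of the autosomes in each of the 3 lists. The series list was taken as a pool of the 2 ChIP samples, so it is not separate from the replicate lists. In the series list the ratio was 1.34 on V and 1.04 on I, 0.99 on II, 1.09 on III and 0.98 on IV. In replicate 1 it was 1.30 on V and 0.86 to 1.11 on the others, and in replicate 2 it was 1.37 on V and 0.93 to 1.13. The V ratio divided by that of I to IV was 1.31 in the series list, 1.37 in replicate 1 and 1.31 in replicate 2. The test of that difference, an interaction term in the quasi-Poisson model, missed the threshold in all 3 lists (adjusted p = 0.056, 0.11 and 0.056, n = 171 windows). With the middle 33% as centre the ratios were 1.16, 1.17 and 1.15 (adjusted p = 0.44, 0.48 and 0.44, n = 174 windows), and counted in covered base pairs they were 1.24, 1.12 and 1.30, with no test. With only the peaks found in both replicates they were 1.67, 1.77 and 1.63 and passed (adjusted p = 0.020 each, n = 171 windows). Lists restricted in that way hold peaks that overlap one another, so these 3 values are not separate results.

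**Figure D1:**
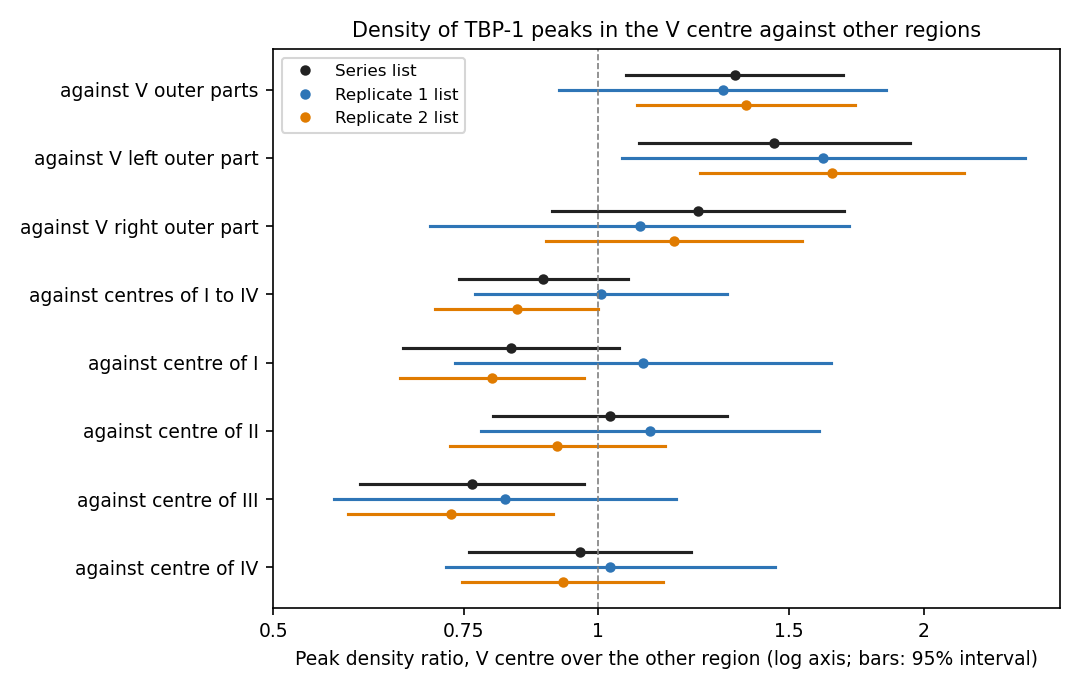
Density of TBP-1 peaks in the V centre divided by the density in each other region, on a log axis, for the 3 lists. Points are ratios and bars 95% intervals of the quasi-Poisson model. The ratios to the V outer parts lie at 1.30 to 1.37 and those to the centres of I to IV at 0.84 to 1.01.

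Peaks were not spread evenly inside the V centre. The 20 full windows of 500 kb held 8 to 32 series-list peaks, with a median of 16 and a mean of 18.4 ± 6.89 (SD over windows). The 20 full windows of the outer parts held 7 to 22, with a median of 13. The window variance was 2.58 times the mean in the V centre and 1.39 times the mean in the outer parts in the series list, 2.11 and 2.07 times in replicate 1, and 0.84 and 1.26 times in replicate 2, where independent counts at 1 common rate would give 1. Over these full windows, the V centre was thus the more uneven of the 2 regions in the series list and not in replicate 2. The comparison leaves out the dense, incomplete window at the right end of the chromosome. In the 60 full windows of the centres of I to IV, the variance was 2.55, 2.37 and 1.60 times the mean in the series, replicate 1 and replicate 2 lists. Those windows held 7 to 45 series-list peaks, so neither the unevenness nor windows as full as 32 peaks were particular to the V centre.

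The fullest windows formed a pair of dense stretches, which were picked out after their counts were seen. The first ran from 8230001 to 9730000 and held 90 series-list peaks in 1.5 Mb, or 60.0 per Mb. Its 3 windows held 30, 32 and 28 series-list peaks, 19, 14 and 12 replicate 1 peaks, and 16, 17 and 14 replicate 2 peaks. It took up 14.3% of the centre and accounted for 22.9% of the series-list peaks there, 26.8% in the replicate 1 list and 19.8% in that of replicate 2.

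The second stretch ran from 14730001 to the right bound at 15690000 and held 56 series-list peaks, or 58.3 per Mb. Its full window, from 14730001 to 15230000, had 31 series-list, 11 replicate 1 and 15 replicate 2 peaks, and its last window of 460 kb had 25, 16 and 18. The density dropped at the right bound, since the next window outwards held 7 series-list, 4 replicate 1 and 4 replicate 2 peaks.

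Outside both stretches, the other 16 windows of the V centre held 247 peaks, or 30.9 per Mb, against 28.1 per Mb in the outer parts. These windows had 12.0 replicate 1 peaks per Mb and 19.6 replicate 2 peaks per Mb, against 12.3 and 16.5 per Mb in the outer parts. The fullest windows were removed from the centre only, and the outer parts kept theirs, so the removal had to bring the centre down. Because the stretches were chosen by their counts, these values are a description and were not tested.

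The emptiest window ran from 7230001 to 7730000, with 8 series-list peaks, 3 replicate 1 peaks and 5 replicate 2 peaks. The next was 9730001 to 10230000, directly to the right of the first dense stretch, with 12, 5 and 9 peaks in the series, replicate 1 and replicate 2 lists. The window at the left bound, 5230001 to 5730000, was the third, with 13, 6 and 9 peaks, a series-list count that it shared with 6730001 to 7230000 and 10230001 to 10730000. Each list had peaks in every window. Across the 21 windows of the V centre, the counts of replicate 2 and replicate 1 rose and fell together (Pearson's r = 0.86, Spearman's rho = 0.82), a description over windows in which both counts come from the same stretch of chromosome.

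**Figure D2:**
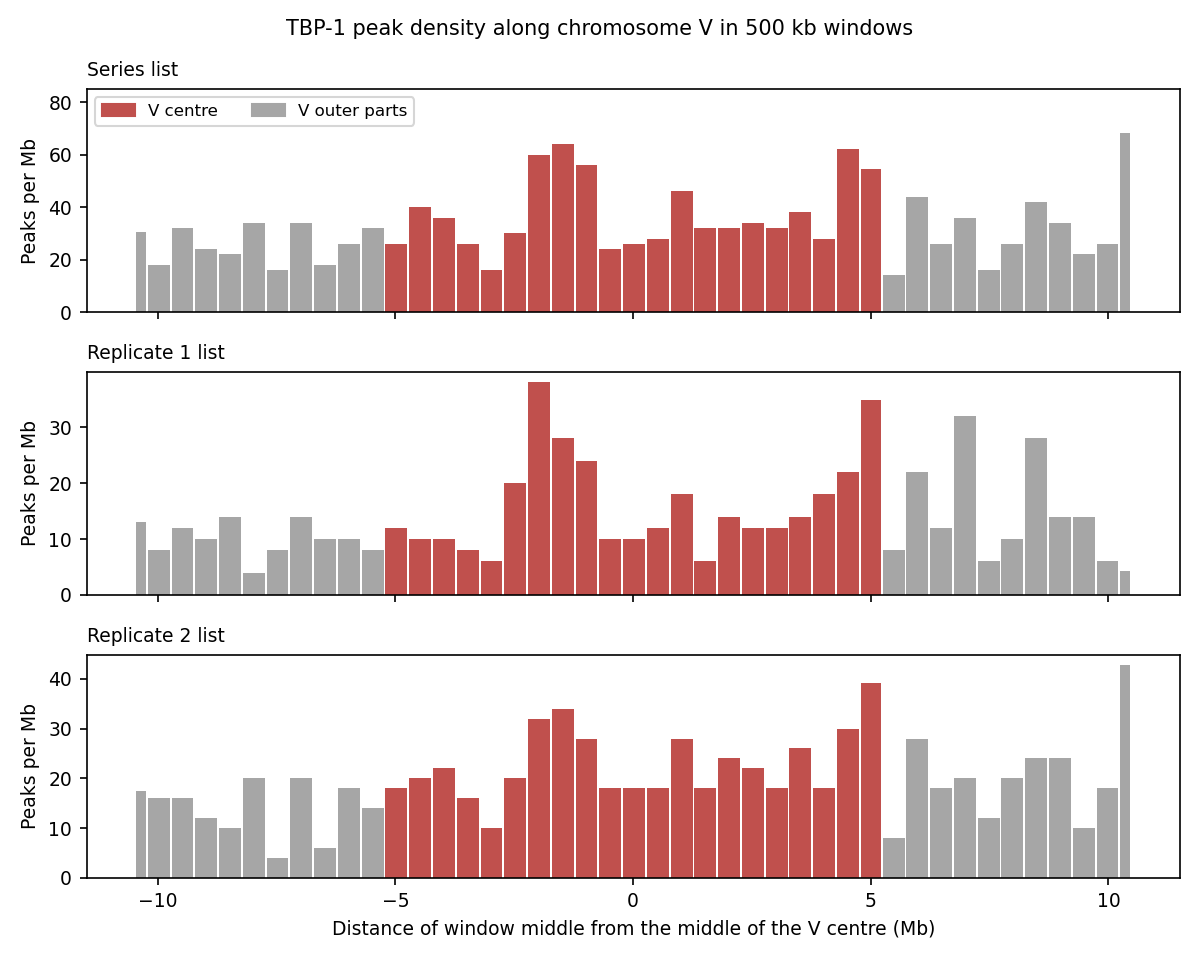
Peaks per Mb in 500 kb windows along chromosome V for the 3 lists, with V-centre windows in red and outer windows in grey; the horizontal axis is the distance from the middle of the V centre in Mb. The dense stretches stand to the left of the middle (60.0 peaks per Mb over 3 windows of the series list) and at the right edge of the centre (58.3 per Mb), and the bars at the chromosome ends are incomplete windows.

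Stronger peaks made up a larger share of the dense stretches, again as a description without a test. In the first stretch 33 of 90 peaks (36.7%) belonged to the strongest 25% of the series list, in the second 19 of 56 (33.9%), and in the other windows 54 of 247 (21.9%). Peaks found in both replicates made up 40.0% of the first stretch, 42.9% of the second and 32.0% of the other windows. Close neighbours were common there: 55.6% of the peaks of the first stretch and 48.2% of those of the second lay within 1 kb of another peak, against 17.8% in the other windows. Because the stretches were chosen for high counts, this contrast follows in part from the choice. Median width was 324.5 bp in the first stretch, 291 bp in the second and 271 bp elsewhere in the centre.

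The V centre divided into 4 equal lengths of 2.615 Mb gave 77, 118, 89 and 109 series-list peaks from left to right. The replicate 1 counts were 24, 62, 33 and 49, and the replicate 2 counts 46, 66, 59 and 66. The leftmost length was the poorest in every list, and only 22.1% of its series-list peaks were found in both replicates, against 33.7% to 40.7% in the other lengths. Its share of peaks among the strongest 25% was 18.2% in the series list, 8.33% in replicate 1 and 13.0% in replicate 2. In the next length, which holds the first dense stretch, that share was 34.7%, 38.7% and 47.0%.

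The score of a peak is the authors' own value, used here as a percentile among the nuclear peaks of its list. V-centre peaks had a median score percentile of 52.0 in the series list, 50.7 in replicate 1 and 54.6 in replicate 2, with scores of 2.06 to 244.44, 51.06 to 3112.38 and 50.04 to 3165.64. In the outer parts of V the medians were 46.3, 43.5 and 49.2, and in the centres of I to IV 47.2, 52.3 and 44.6. Of the V-centre peaks, 106 (27.0%, 95% Wilson interval 22.8 to 31.6) were among the strongest 25% of the series list, against 62 of 294 (21.1%, 16.8 to 26.1) in the outer parts and 297 of 1302 (22.8%, 20.6 to 25.2) in the centres of I to IV. Neither difference passed Fisher's exact test (adjusted p = 0.21 for both, over 14 tests). Every test on shares treats each peak as its own unit, although close neighbours are related, so the p values may be too small.

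No difference in peak width between the V centre and the other regions passed a test. Series-list peaks had a median width of 281 bp with quartiles of 204 and 402 bp, against medians of 278.5 bp in the outer parts and 268.5 bp in the centres of I to IV. Replicate 1 peaks had a median of 513 bp in the V centre, 481 bp in the outer parts and 536 bp in the other centres. Replicate 2 peaks had medians of 842, 837 and 840 bp in that order. Peaks wider than the series-list median of 271 bp made up 53.9% of the V centre, 51.7% of the outer parts and 48.8% of the centres of I to IV, and neither difference passed (Fisher's exact test, adjusted p = 0.72 and 0.21). Stronger peaks were wider: across the 393 members, width and score had a Spearman's rho of 0.71, against 0.61 in the outer parts and 0.70 in the other centres. This is a description over peaks of 1 list, in which width and score come from the same reads.

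Broad peaks were rare in the V centre. In the series list 2 of 393 were wider than 3 kb, in replicate 1 3 of 168 and in replicate 2 6 of 237. The widest, from 7916911 to 7924982, was 8072 bp wide with a middling score of 19.9 (percentile 63.3). The strongest replicate 1 peak overlapping it was 3939 bp wide, from 7920423 to 7924361, and lay over its right part. Whether weaker replicate 1 peaks overlapped the rest was not examined. The strongest replicate 2 peak overlapping it was 8612 bp wide, from 7916679 to 7925290. The next, from 10605635 to 10612489, was 6855 bp wide with a score of 32.99, and its partners were of similar extent in replicate 1 (6962 bp, score 3100) and replicate 2 (7190 bp, score 1041.35). The widest after these, 5283181 to 5285889, was 2709 bp wide with a score of 55.71, and was also the member nearest the left bound. All 3 were thus listed in both replicates, and their series-list score percentiles, 63.3, 72.6 and 80.2, were below the median of 84.5 of the members found in both.

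Most members had a counterpart in at least 1 replicate, as was the case in the other regions. Of the 393 members, 139 (35.4%, 30.8 to 40.2) had a counterpart in each replicate, 118 (30.0%) in replicate 2 alone, 24 (6.11%) in replicate 1 alone and 112 (28.5%, 24.3 to 33.2) in neither. In the outer parts of V 31.0% were in both and 26.9% in neither, and in the centres of I to IV 32.1% and 29.3%. None of the differences in these 2 shares passed Fisher's exact test (adjusted p of 0.42 to 0.80). The shares found in 1 replicate alone were not tested. Peaks in replicate 1 alone made up 6.11% of the V centre (4.14 to 8.93), against 13.9% of the outer parts (10.4 to 18.4) and 5.38% of the centres of I to IV (4.28 to 6.74). Several of them shared a partner: the 24 members met 18 replicate 1 peaks, and the 41 peaks of the outer parts met 29. Of these series-list peaks, 11 and 24 lay within 1 kb of another peak, so they are not separate units. Peaks in replicate 2 alone numbered 118 of 393 in the V centre, against 83 of 294 in the outer parts and 433 of 1302 in the other centres.

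Support followed strength closely. Of the 106 members in the strongest 25% of the series list, 100 were in both replicates and 0 in neither. In the next 25%, 36 of 100 were in both and 7 in neither. Below the median, 3 of 98 and 0 of 89 were in both, and 55 and 50 were in neither. The median score and width were 92.54 and 430 bp for members in both replicates, 11.045 and 272 bp for those in replicate 2 only, 8.655 and 305 bp for those in replicate 1 only, and 6.46 and 187 bp for those in neither. The same lists underlie these values, so the relation of support to strength is not independent evidence for any peak.

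**Figure D3:**
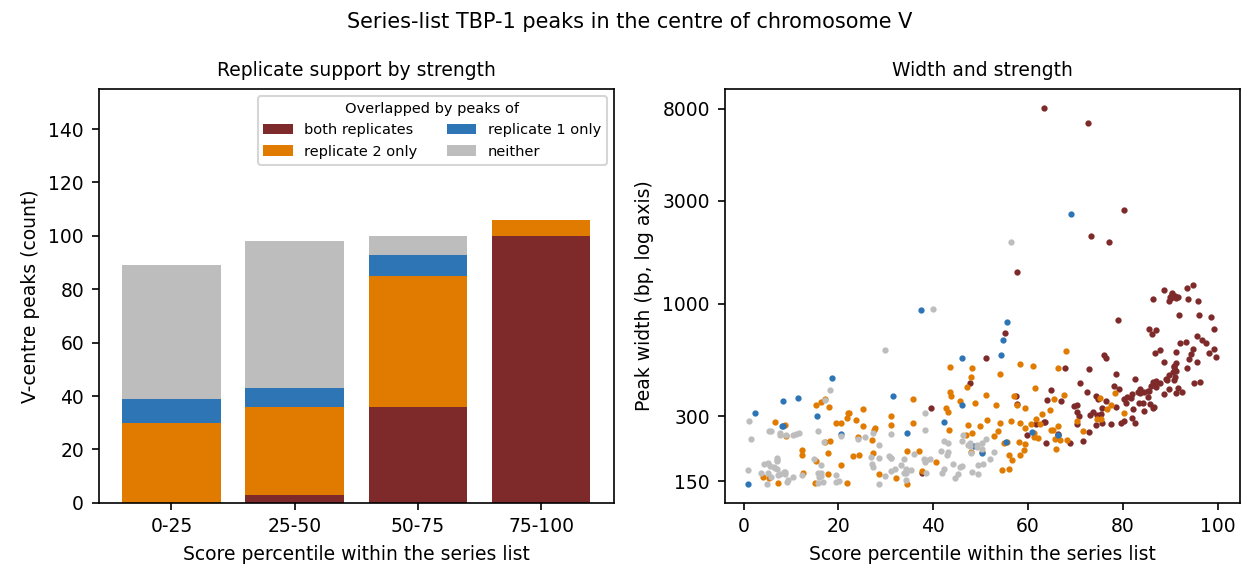
Left, counts of V-centre peaks by score percentile within the series list, coloured by the replicates whose peaks overlap them; right, peak width in bp on a log axis against score percentile in the same colours. Of the strongest 25%, 100 of 106 were in both replicates, and the 2 widest peaks, 8072 and 6855 bp, have scores below the 75th percentile.

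The other 6 members of the strongest 25% were all in replicate 2 only. The strongest of them, 15028920 to 15029232, had a score of 56.13 and was 313 bp wide. The others were 9293358 to 9293742, 5587088 to 5587426, 9091388 to 9091711, 7142678 to 7142968 and 11585130 to 11585493, with scores of 39.45 to 48.47. These 6 were listed after their values were seen. In the strongest 25%, the outer parts of V had 62 of 62 peaks in both replicates and the centres of I to IV had 291 of 297.

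Replicate 1 peaks of the V centre were found again in replicate 2 more often than those of the outer parts. In the V centre 143 of 168 replicate 1 peaks overlapped a replicate 2 peak (85.1%, 79.0 to 89.7), against 90 of 129 in the outer parts (69.8%, 61.4 to 77.0). This difference of 15.4 percentage points passed Fisher's exact test (adjusted p = 0.024). In the centres of I to IV the share was 83.1%, and the difference from the V centre did not pass (Fisher's exact test, adjusted p = 0.72). The call against the outer parts was lost when shared peaks needed centres within 500 bp (73.8% against 69.8%, Fisher's exact test, adjusted p = 0.87), with the stronger 50% of each list (95.3% against 89.1%, adjusted p = 0.57), when peaks closer than 1 kb were merged (86.8% against 73.2%, adjusted p = 0.13) and with the middle 33% as centre (a difference of 10.3 percentage points, adjusted p = 0.57).

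In the other direction, 128 of 237 replicate 2 peaks of the V centre overlapped a replicate 1 peak (54.0%, 47.6 to 60.2), against 50.3% in the outer parts and 45.4% in the centres of I to IV. Neither difference passed (Fisher's exact test, adjusted p = 0.68 and 0.12). The replicate 2 list was the longer, and the read depth behind either list is unknown. Nearly all replicate peaks of the V centre had a series-list counterpart: 161 of 168 in replicate 1 (95.8%) and 229 of 237 in replicate 2 (96.6%).

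The replicate peaks missing from the other list were weak. Median scores were 75.92 for the 25 such peaks of replicate 1 and 367.86 for its 143 shared ones. They were 93.98 for the 109 such peaks of replicate 2 and 861.185 for its 128 shared ones. In replicate 1 the strongest of these were 6942072 to 6942995 (score 561.56) and 9428399 to 9430692 (525.96). In replicate 2 they were 11584913 to 11585614 (495.54) and 5586799 to 5588441 (474.26). All 4 overlapped a series-list peak, and their score percentiles were 63.0 to 68.2.

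The 139 members found in both replicates ranked alike in each. Each was paired with the strongest overlapping peak of a replicate, which gave 138 different replicate 1 partners and 128 different replicate 2 partners. The ranks of the partners' scores had a Spearman's rho of 0.85, those of member and replicate 1 partner 0.82, and those of member and replicate 2 partner 0.79. These are descriptions over 139 peaks of lists from the same study. The replicate 2 partner was wider than the replicate 1 partner for 139 of 139 members, with median widths of 985 and 513 bp. The partners stood at a median percentile of 78.5 in the longer list of replicate 2 and of 57.0 in that of replicate 1.

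**Figure D4:**
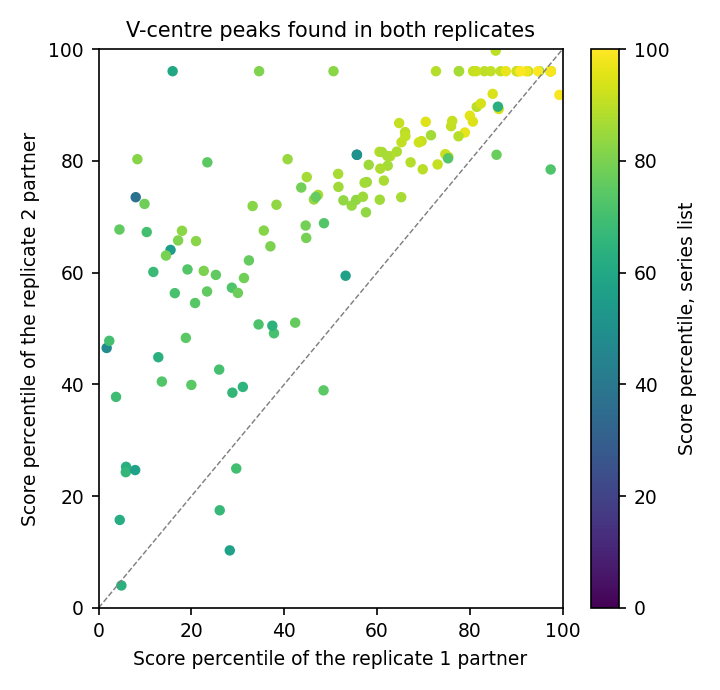
Score percentile of the replicate 2 partner against that of the replicate 1 partner for the 139 V-centre peaks found in both replicates, coloured by score percentile in the series list; the dashed line marks equal percentiles. Most points lie above the line (median percentiles 78.5 and 57.0), and the row of points near the top holds replicate 2 peaks with the shared score 3100.

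The 10 strongest members found in both replicates were 435 to 1027 bp wide and ranked between 13 and 175 in the series list. The first was 9503233 to 9503798, 566 bp wide with a series-list score of 244.44. Its partners had scores of 2785.2 in replicate 1 and 3100 in replicate 2. The next was 15551489 to 15552102, with a series-list score of 239.87 and partner scores of 2325.99 and 3100 in replicates 1 and 2. The peak 9969841 to 9970604 followed with 239.02, and its replicate 1 partner had 3112.38, the highest score of the replicate 1 peaks of the V centre. A score of exactly 3100 was given to 10 replicate 1 and 23 replicate 2 peaks of the V centre. Whether scores were capped near that value is not stated, so ranks and percentiles at or above it may not reflect an order of strength. That peak was the right edge of the second longest stretch with no series-list peak.

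Further down came 15464817 to 15465686 (series-list score 231.44), 15190807 to 15191396 (228.4), 12780114 to 12780771 (223.45), 13003185 to 13003865 (214.02), 8431248 to 8431682 (209.19), 12303081 to 12303969 (208.76) and 8499886 to 8500912 (207.07). In replicate 1 the partners of the 10 peaks ranked at percentiles of 78.9 to 99.3, and in replicate 2 at 85.1 to 96.1. The score 3100, shared by many peaks, was given to 4 of the replicate 1 partners and 8 of the replicate 2 partners. The weakest partners in both replicates were those of 8431248 to 8431682, with scores of 1195.97 and 1711.84. Of the 10 peaks, 6 lay in the dense stretches and 4 outside. The stretches, chosen by their counts, held 146 members, or 37.2% of those in the V centre.

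The peaks above were chosen by score, and the members with no replicate counterpart were all weaker than these. The strongest members with no counterpart were 8699305 to 8701240 (score 14.97), 7060410 to 7060615 (13.06) and 11228778 to 11228967 (12.61). The first was 1936 bp wide, in a run of 3 close peaks, and the others were 206 and 190 bp wide. At the left bound, the nearest peak inside was 5283181 to 5285889 (score 55.71, in both replicates) and the nearest outside 5076282 to 5076803 (score 5.3, in replicate 1 only). At the right bound, the nearest inside was 15668102 to 15668382 (score 40.45, in both replicates) and the nearest outside 15766281 to 15766447 (score 7.84, in neither).

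Spacing within the V centre combined close neighbours with long empty stretches. The 392 gaps between neighbouring series-list peaks had a median of 12.1 kb with quartiles of 2.04 and 37.7 kb, against a median of 19.2 kb in the outer parts and 12.6 kb in the centres of I to IV. In replicate 1 the medians were 24.4, 34.2 and 26.8 kb, and in replicate 2 24.1, 28.4 and 20.7 kb, in the same order. Gaps over 100 kb numbered 16 of 392 in the V centre, 24 of 292 in the outer parts and 46 of 1298 in the centres of I to IV.

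Members within 1 kb of another peak numbered 121 (30.8%, 26.4 to 35.5), against 26.9% in the outer parts of V and 25.1% in the centres of I to IV. Neither difference passed (Fisher's exact test, adjusted p = 0.42 and 0.12). With gaps under 1 kb joined, the members fell into 272 lone peaks and 47 runs of close peaks, of which 32 were pairs, 9 held 3 peaks, 3 held 4 and 3 held 6. The largest runs were 9086723 to 9091711, with 6 peaks of which 4 were in both replicates, 6171670 to 6176134, with 6 weak peaks of which 0 were in both, and 9340963 to 9344622, with 6 peaks of which 1 was in both. Their highest scores were 198.33, 14.54 and 189.27 in that order.

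The longest stretch with no series-list peak ran from 7196776 to 7415936, or 219.2 kb, and lay mostly in the emptiest window. It held 0 replicate 1 peaks and 2 replicate 2 peaks. The next ran from 9790092 to 9969840, or 179.7 kb, and the third from 14468878 to 14646290, or 177.4 kb. Both held 0 replicate 1 peaks, and they held 2 and 1 replicate 2 peaks. An empty stretch here is one in which no peak was listed, at a read depth that is unknown.

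**Figure D5:**
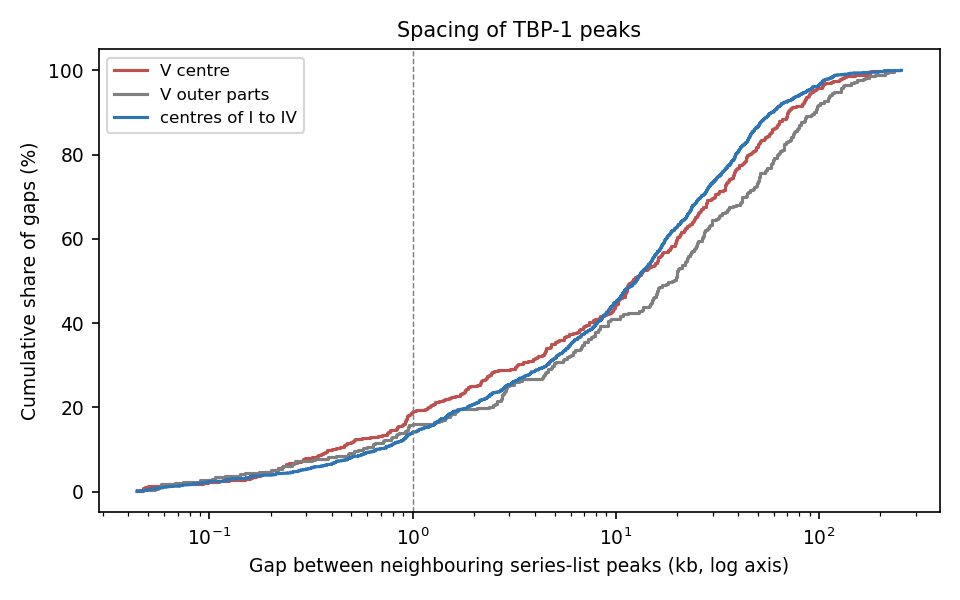
Cumulative share of gaps between neighbouring series-list peaks against gap length in kb on a log axis, for the V centre, the V outer parts and the centres of I to IV; the dashed line marks 1 kb. At 1 kb the V-centre curve stands at 18.9% of gaps, the outer parts at 15.8% and the other centres at 14.1%, and the median gaps are 12.1, 19.2 and 12.6 kb.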

How the data were processed

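The lists hold peaks of TBP-1 ChIP-seq from embryos. Per the submitters' processing notes, reads were handled with BWA on build ce10, with no version given. Per the file headers, positions are on WormBase WS220. MACS is named as the caller inside the replicate lists, and MACS v2 inside that of the series. Its settings, control library and filters are not stated, nor is how the series list came about, and that list was taken as a pooled list of the ChIP samples. Each peak carries 1 score, as deposited by the authors, on an unstated scale. Scores were used only as ranks or percentiles within a list. The lists hold no read counts, so depth is unknown and affects how many weak peaks each list holds.

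Mitochondrial peaks were left out. A chromosome ran to the last peak end in any list, and its centre was the middle 50%, with bounds rounded to 10 kb. Windows of 500 kb were counted outwards or rightwards from those bounds. Density ratios came from a quasi-Poisson log-linear model of window counts, which takes its error from the spread between windows. It treats windows as independent of one another. Shares were compared by Fisher's exact test. All tests were two-sided, with Benjamini-Hochberg adjustment within a family and a threshold of 0.05. Overlap meant at least 1 bp shared. Intervals on shares are 95% Wilson intervals and cover the counting of peaks only. The density model was tested on simulated windows, drawn independently of one another with a fixed dispersion. That check does not cover full windows that adjoin. Named peaks were the 10 strongest found in both replicates, the 3 strongest found in neither, the 3 widest, the 3 longest gaps, the 3 fullest and 3 emptiest windows, the 2 strongest of each replicate missing from the other and those nearest each bound. The members, regions and tests were chosen with earlier results of these data known. The alternatives were other tests, window sizes, bounds, overlap definitions, thresholds and lists, stronger or merged peaks, and either replicate left out. No genome or annotation of WS220 was used, so no peak was assigned to a gene or given a sequence. Tools were Python 3.11.15 with numpy 2.4.6, pandas 2.3.3, scipy 1.17.1, statsmodels 0.14.6 and matplotlib 3.10.9.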

Additional observations from a re-analysis of the deposited data

How the results depend on the processing

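Of 172 comparisons of a result with an alternative, 130 kept their direction and side of the threshold or stayed within the error. Most results were not called in the main run, and staying uncalled counted as kept. The density call against the outer parts was lost in 4 of 9 alternatives in the series list and 4 of 9 in replicate 2. Among these alternatives, covered base pairs had no test and could not lose the call. The call on replicate 1 peaks found in replicate 2, against the outer parts, was lost in 4 of 5. The density ratio of V centre over outer parts stayed above 1 in every alternative run, at 1.13 to 1.59 in replicate 1, 1.16 to 1.47 in replicate 2 and 1.16 to 1.53 in the series list. This ratio is total count over total length, so the exact binomial test and the other window sizes could not move it. Its call was lost in the series list and replicate 2 with windows of 1 Mb (1.34 and 1.37), the middle 33% (1.16 in both), the stronger 50% of each list (1.49 and 1.46) and only peaks found in both replicates (1.53 and 1.47). The exact binomial test, which counts peaks as independent, called it in replicate 1 too (1.30). Against the centres of I to IV, that test called the V centre lower in the series list and replicate 2 (0.89 and 0.84), as did merged peaks (0.84 and 0.82). The replicate 1 ratio turned below 1 with the middle 33% (0.96), the stronger 50% (0.97) and merged peaks (0.95), and the replicate 2 ratio turned to 1.00 with only peaks found in both. The V ratio over that of I to IV passed with the stronger 50% (1.59 in the series list, 1.61 in replicate 2) and with only peaks found in both replicates (1.67, 1.77 and 1.63 in the series, replicate 1 and replicate 2 lists, which then hold overlapping peaks). It was lowest with the middle 33% in the series list and replicate 2 (1.16 and 1.15) and with covered base pairs in replicate 1 (1.12), with no call. With either replicate left out, the mean ratios were 1.30 to 1.37, 0.84 to 1.01 and 1.31 to 1.37, values that cannot leave the mean of 2 by more than their SD. The cause was not tested for any of these.

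The share of replicate 1 peaks found in replicate 2 exceeded that of the outer parts in every alternative, but lost its call with the middle 33% (10.3 percentage points), the stronger 50% (6.20), merged peaks (13.6) and centres within 500 bp (4.04). Against the centres of I to IV it turned with merged peaks (-0.17) and centres within 500 bp (-4.04). Differences that were never called and changed sign were replicate 2 peaks found in replicate 1 against the outer parts with the middle 33% (-0.19), peaks in neither replicate against the centres of I to IV with the stronger 50% (0.43) and centres within 500 bp (1.00), and the strongest 25% against those centres in the replicate 1 list (-1.44). The share of wide peaks turned against the outer parts with the middle 33% (-1.58) and merged peaks (-0.34), and against the centres of I to IV with a 500 bp limit (-0.67), the replicate 1 list (-3.27) and the replicate 2 list (-0.27). With either replicate left out, the difference from the outer parts ranged from -3.42 to 6.21 points for peaks found in the remaining replicates and from -6.21 to 3.42 points for peaks missing from them. Against the centres of I to IV these ranged from 0.033 to 4.00 and from -4.00 to -0.033. Median width moved to 312 bp with merged peaks, 513 bp in the replicate 1 list and 842 bp in the replicate 2 list. No paired analysis was possible because the inputs, the other group with the same replicate numbers, had no values analysed here.

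Unknown depth, the unstated making of the series list and the lack of an input list limit what weak or missing peaks show.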
